A study of Homo sapiens with 19 samples.

Results

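The protein kinase C (PKC) genes described here are PRKCA, PRKCB, PRKCD, PRKCE, PRKCH, PRKCI, PRKCQ and PRKCZ. They were chosen by gene name, and all 8 were found among the 19942 gene rows of the poly-A RNA-seq and eCLIP tables. In the rRNA-depleted RNA-seq table they were found as 106 of 256980 transcripts. The question was how each PKC mRNA behaved in the stress granule (SG), knockdown, eCLIP and arsenite libraries, and whether PRKCA stood apart from its relatives.

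PKC enzymes are serine/threonine kinases that act downstream of receptors coupled to phospholipase C. That enzyme splits a membrane phosphoinositide into diacylglycerol (DAG), which stays in the membrane, and inositol trisphosphate, which releases Ca2+ from the endoplasmic reticulum. Conventional PKCs (such as PRKCA and PRKCB) respond to both Ca2+ and DAG, Ca2+-independent PKCs (PRKCD, PRKCE, PRKCH and PRKCQ) respond to DAG alone, and atypical PKCs (PRKCI and PRKCZ) respond to neither and work with polarity and scaffold proteins. In neurons PKC enzymes are known for roles in transmitter release, neurite growth and synaptic plasticity, and PRKCE is abundant in brain.

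All samples came from SH-SY5Y, a human neuroblastoma cell line that is used as a neuron-like model. The poly-A RNA-seq set held 1 library each of cells given control siRNA (siCtrl), siRNA against G3BP1 (siG3BP1) or siRNA against G3BP2 (siG3BP2), of lysate from cells treated with sodium arsenite (AS; Total), and of SG cores pulled from that lysate with a G3BP1 antibody (SG). By the study's methods that lysate was cleared by low-speed centrifugation before its RNA was taken, so Total is not whole-cell RNA. The rRNA-depleted set held 1 untreated library and 1 library after 500 μM AS for 1 h. The eCLIP set, in which RNA crosslinked to a protein by UV is recovered and sequenced, held 2 libraries each for G3BP1 and G3BP2, untreated and after AS, and the 4 input libraries were not analysed here. G3BP1 and G3BP2 are RNA-binding proteins that nucleate SGs. For the poly-A and eCLIP sets the labels state 50 mM AS for 1 h on every sample, those titled control included, whereas the study's methods give the micromolar dose above. From the labels alone it was not clear whether the knockdown cells received AS. The study's methods describe siRNA followed by fresh medium for these cells, with no AS step.

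Groups with 1 library have no replicate check, so differences between them are given as values without a test. No source used here says that the eCLIP duplicates came from separate cultures, and their p-values measure only the spread between these libraries. TPM values carry no depth. The summed eCLIP numbers ran from 4268657 to 26179732 per library, with the first library of each pair the larger in all 4 groups. Each target was lower in its own siRNA library: G3BP1 had 18.7 TPM in siCtrl and 5.996 TPM in siG3BP1, and G3BP2 had 38.1 TPM in siCtrl and 11.4 TPM in siG3BP2. Of 14 neuroblastoma markers, 13 were above 1 TPM in siCtrl, against 3 of 15 markers of other cells (COL1A1, COL1A2 and DCN), of which 8 were listed at 0. The summed level of the other-cell markers was 25.5 TPM in Total against 58.2 TPM in SG, and that of the neuroblastoma markers 3440 and 6544 TPM. In bulk samples such as these, fewer cells of a type and less RNA per cell cannot be told apart.

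The PKC genes encode kinases of similar size but their transcripts differ. The coding sequences of the 8 canonical mRNAs (GENCODE release 44, GRCh38) ran from 1779 nt (PRKCZ) to 2214 nt (PRKCE), while the 3′UTRs ran from 386 nt (PRKCZ) to 6706 nt (PRKCA). PRKCA (ENSG00000154229, chr17:66302613-66810743, plus strand) had the longest canonical mRNA of the 8, at 8964 nt with 48.7% GC. PRKCB (ENSG00000166501, chr16:23835983-24220611, plus strand) followed with 8010 nt. PRKCE (ENSG00000171132, chr2:45651345-46187990, plus strand) had an mRNA of 5749 nt in the widest gene of the 8, which spans 537 kb. PRKCI (ENSG00000163558, chr3:170222424-170305977, plus strand) had 4887 nt and the lowest GC content, 38.7%. The shortest mRNAs were those of PRKCZ (ENSG00000067606, chr1:2050411-2185395, plus strand), with 2385 nt and 60.3% GC, and PRKCD (ENSG00000163932, chr3:53156009-53192717, plus strand), with 2833 nt in a gene of 36.7 kb. PRKCH (ENSG00000027075, chr14:61187559-61550976, plus strand) had 3720 nt and PRKCQ (ENSG00000065675, chr10:6427143-6580301, minus strand) 3255 nt. The protein-coding genes TMEM30B and ENSG00000258989 overlap the span of PRKCH, and FAAP20 overlaps that of PRKCZ. Among exonic bases, 11.7% in PRKCH and 12.2% in PRKCZ also lie in exons of other genes, non-coding genes included. Because no source states whether counting used strand, reads there cannot be assigned to one gene with certainty, and the levels of PRKCH and PRKCZ are uncertain to that extent.

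The sequence that the study found most often in its eCLIP peaks can be written as CCAGCCTGG or CCAGGCTGG, which are reverse complements of each other. The canonical PRKCZ mRNA carried it at 1 place, in the 3′UTR. The site is shown as an example of a match in a PKC mRNA, with the motif in capitals and 8 bases on either side.
PRKCZ 3′UTR, chr1:2185083-2185091, plus strand: tatgcatgCCAGGCTGGgcacggct
The site lies at positions 2073 to 2081 of the mRNA. A match is common: 28.0% of 19845 canonical mRNAs held the motif, as did 21.7% of 6457 mRNAs of 1600 to 3200 nt, the range that holds PRKCZ. Within the whole gene span, introns included and on both strands, matches numbered 255 in PRKCA, 204 in PRKCB, 174 in PRKCE, 127 in PRKCH, 95 in PRKCI, 74 in PRKCZ, 67 in PRKCQ and 17 in PRKCD. Per 100 kb of span PRKCI had the most of the 8, 114, and PRKCA had 50.2, against a median of 40.4 over all genes. No peak positions were analysed here, so binding at these matches was not measured.

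In the libraries other than SG, PRKCA and PRKCZ were the main PKC mRNAs. PRKCA had 54.2 TPM in siCtrl, 44.2 TPM in siG3BP1, 35.8 TPM in siG3BP2, 17.1 TPM in Total but 617 TPM in SG. PRKCZ had 46.3, 54.7, 45.4, 43.2 and 66.6 TPM in the same order. Thus PRKCA was 1.17 times the level of PRKCZ in siCtrl and below it in siG3BP1, siG3BP2 and Total, while in SG it was 9.27 times the next PKC mRNA. PRKCA made up 44.6% of the summed TPM of the 8 genes in siCtrl, 24.6% in Total and 74.8% in SG. In SG it ranked 55 among all gene rows, against 2171 in siCtrl.

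The other conventional gene, PRKCB, was close to undetected. Its TPM was 0.00777 in siCtrl, 0.000684 in siG3BP1, 0.000546 in siG3BP2 and 0.00461 in SG, and it was listed at 0 in Total.

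Among the Ca2+-independent PKCs the levels were lower and varied more between libraries. PRKCD, a kinase often linked to apoptosis and oxidative stress, had 6.83 TPM in siCtrl, 7.67 in siG3BP1, 5.998 in siG3BP2, 1.38 in Total and 14.8 in SG. PRKCE had 3.76 TPM in siCtrl, 0.0968 in siG3BP1, 2.39 in siG3BP2, 0.0379 in Total and 63.3 in SG. PRKCE was thus the PKC mRNA that varied most across libraries other than PRKCB, and its level in Total was a ratio of 0.0101 to that in siCtrl. PRKCH, best known from T cells and epithelia, had 0.126 TPM in siCtrl, 1.17 in siG3BP1, 0.612 in siG3BP2, 0.123 in Total and 8.48 in SG. PRKCQ, the PKC of the T cell synapse, was steadier, with 1.66, 1.58, 1.38 and 1.16 TPM in siCtrl, siG3BP1, siG3BP2 and Total and 7.43 TPM in SG. The atypical gene PRKCI, the catalytic partner of the PAR polarity complex, had 8.57, 8.37, 8.97 and 6.50 TPM in those 4 libraries and 46.99 TPM in SG. For 7 of the 8 genes, all but PRKCB, the SG library was the highest of the 5.

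**Figure D1:**
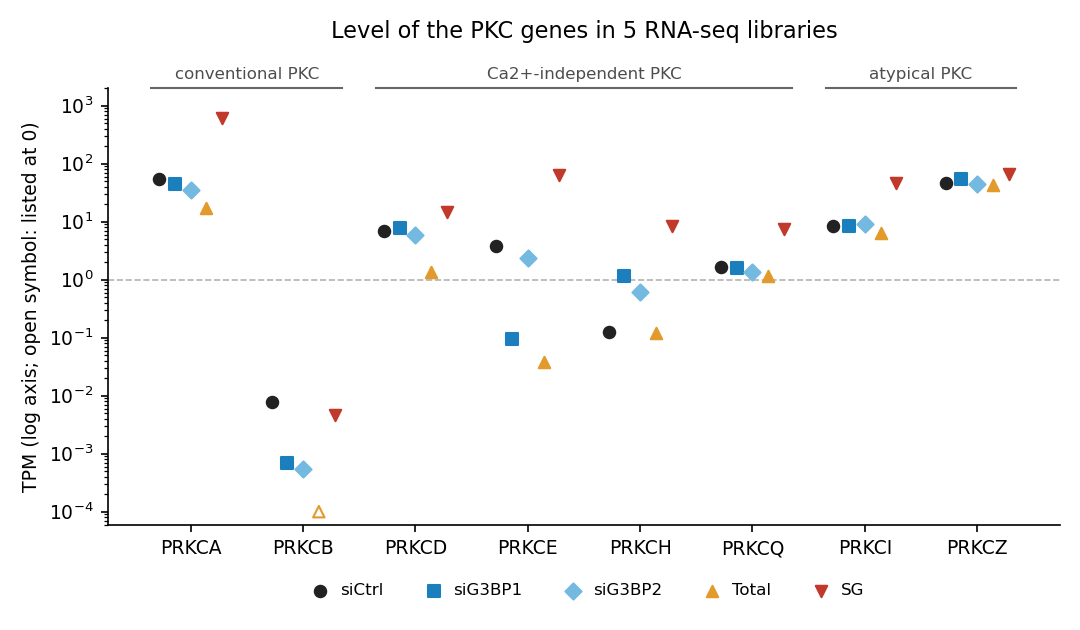
TPM of the 8 PKC genes (log axis) in the 5 poly-A RNA-seq libraries, 1 library per symbol, ordered by conventional, Ca2+-independent and atypical PKC; the dashed line marks 1 TPM and the open symbol a value listed at 0. The SG library was the highest for 7 of 8 genes, and PRKCA in SG, at 617 TPM, was 9.27 times the next gene.

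The comparison of SG with Total asks which mRNAs were enriched in SG cores. By the rule of a fold of TPM + 1 above 2 with more than 1 TPM in SG, 6 of the 8 PKC genes were SG-enriched, against 62.9% of the 13560 genes above 1 TPM in either library. PRKCZ fell in neither class and PRKCB was below 1 TPM in both libraries, so the 6 enriched genes were 6 of 7 that could be classed. The median log2 fold of those 7 was 2.73, against 1.51 for all genes classed, so most genes had higher TPM in SG than in Total. PRKCE and PRKCH passed the 1 TPM minimum only through SG. Over all 8 genes the median was 2.705, against 0.60 over all rows of the table. With SG rescaled to a median ratio of 1, the number of SG-enriched PKC genes was 5.

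PRKCE had the highest fold of the family, 61.98 (log2 5.95), which placed it at percentile 99.5 of all genes classed. PRKCA followed with a fold of 34.2 (log2 5.10) at percentile 97.9. The log2 fold was 3.08 for PRKCH, 2.73 for PRKCD, 2.68 for PRKCI and 1.97 for PRKCQ. PRKCZ had 0.61, which was −0.82 after SG was rescaled to the median of all genes, and PRKCQ then had 0.77, below the 2-fold threshold. PRKCA therefore stood apart in the amount of PKC mRNA found in SG, while PRKCE exceeded it in fold. The fold of PRKCE was computed against 0.0379 TPM in Total, so its size depends on the added 1 TPM: without it the log2 fold was 10.71, and that of PRKCA was 5.17. The place of PRKCH, at 0.123 TPM in Total, depends on it too. Its plain SG to Total ratio was 69.1, above the 36.1 of PRKCA.

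Because several PKC mRNAs were lower in Total than in siCtrl, SG was also set against siCtrl, a choice made after seeing the data. The Total to siCtrl ratio was 0.316 for PRKCA, 0.202 for PRKCD and 0.932 for PRKCZ, with a median of 0.711 over genes above 1 TPM in siCtrl, among which PRKCA lay at percentile 11.6. Against siCtrl 6 PKC genes passed the enrichment rule, as did 53.8% of 13598 genes above 1 TPM in SG or siCtrl. The log2 fold was 3.49 for PRKCA and 3.76 for PRKCE, at percentiles 94.3 and 96.1 of the 13560 genes above 1 TPM in SG or Total. It was 1.01 for PRKCD, which was 2.73 against Total. PRKCH, at 3.07, was nearly the same with either reference. Without the added 1 TPM the SG to siCtrl ratio was 67.5 for PRKCH, 16.8 for PRKCE and 11.4 for PRKCA, so the order of these genes depends on that addition.

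**Figure D2:**
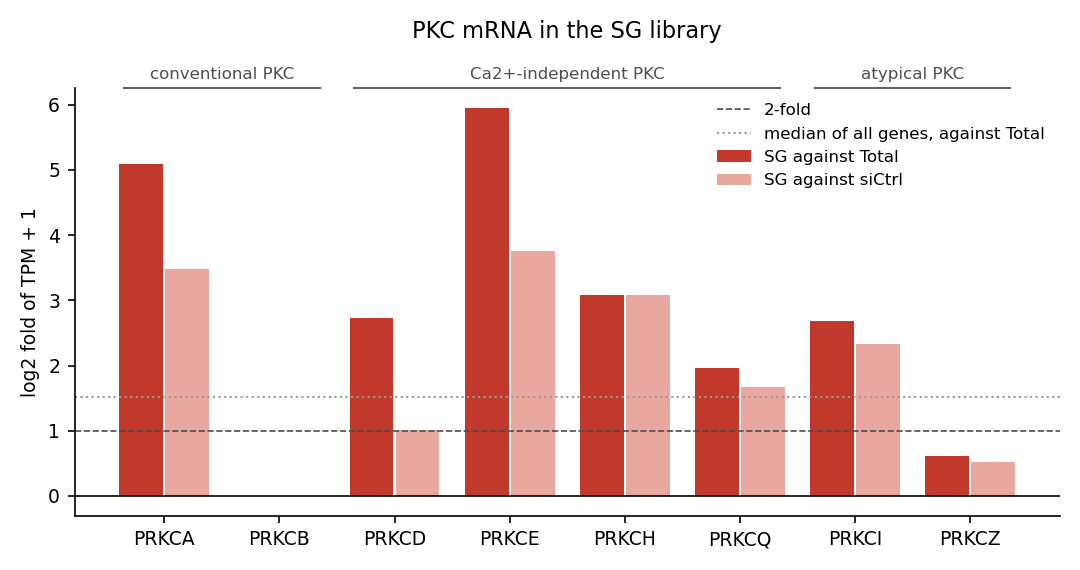
log2 fold of TPM + 1 in the SG library for the 8 PKC genes, against Total (dark bars) and against siCtrl (light bars), 1 library each; the dashed line marks 2-fold and the dotted line the median of all genes against Total, 1.51. With 1 TPM added, PRKCE and PRKCA had the highest folds with either reference. Without that addition the ratio of PRKCH was above that of PRKCA with either reference. PRKCZ stayed below 2-fold and PRKCB, under 1 TPM throughout, had no visible bar.

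Fold in SG went with transcript length across all genes: over 13548 genes the log2 fold had a slope of 1.11 per log2 of the longest annotated transcript, with a Pearson r of 0.58, a description across genes of 1 pair of libraries. At its length PRKCA would have a log2 fold of 2.97 on that line and lay 2.13 above it. PRKCE lay 3.70 above its line value of 2.25. PRKCD and PRKCH lay 1.60 and 1.53 above, PRKCI and PRKCQ 0.69 and 0.63 above, and PRKCZ 0.22 below (a difference of −0.22). PRKCB, the second longest mRNA of the family, had a line value of 2.79 but no measurable fold.

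Across the 5 poly-A libraries the gene whose pattern was nearest to that of PRKCA was SRCAP, at a Euclidean distance of 0.0628 between centred log2(TPM + 1) values over 11948 genes compared. The next were ENSG00000282034 (0.105), UGGT1 (0.144), RAP1GAP2 (0.157) and ARHGAP35 (0.159). Each had its lowest value in Total and its highest in SG, as PRKCA did: the SRCAP level was 27.7 TPM in siCtrl, 8.33 in Total and 309.5 in SG. None of the other PKC genes was among the nearest. The closest were PRKCE at 1.71, PRKCH at 1.73 and PRKCI at 1.79, and PRKCZ and PRKCB were farthest at 3.42 and 3.86.

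The knockdown comparisons ask whether loss of either G3BP moved PKC mRNA levels; both use the same siCtrl library. In siG3BP1, 2 of the 7 PKC genes above 1 TPM in siCtrl or siG3BP1 passed a 2-fold difference, against 6.22% of 12280 genes. PRKCE was lower, from 3.76 TPM in siCtrl to 0.0968 TPM, which is 38.8 times lower. PRKCH was higher, from 0.126 to 1.17 TPM, a ratio of 9.34, and it passed the 1 TPM minimum only through the library in which it was high. With 1 TPM added to each value the log2 ratios were −2.12 for PRKCE and 0.95 for PRKCH, so the call on PRKCH ended.

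The other 5 classed genes stayed within 2-fold in siG3BP1, with ratios of 0.816 for PRKCA, 0.956 for PRKCQ, 0.976 for PRKCI, 1.12 for PRKCD and 1.18 for PRKCZ. In siG3BP2, 0 of the 6 PKC genes above 1 TPM in siCtrl or siG3BP2 passed, against 8.05% of 12229 genes. The lowest ratios were 0.635 for PRKCE and 0.662 for PRKCA, and the others were 0.833 for PRKCQ, 0.878 for PRKCD, 0.980 for PRKCZ and 1.05 for PRKCI. PRKCH had a ratio of 4.88 but stayed under 1 TPM. PRKCA was therefore lower in both knockdown libraries than in siCtrl but within 2-fold, at percentiles 24.2 and 13.1 of all ratios.

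The deposited eCLIP values are headed peaks, and no source used here defines the number behind them. They are read here as a relative amount recovered from each gene with G3BP1 or G3BP2. Contact with a PKC mRNA cannot be read from them, as input was not used and introns may contribute. Each deposited value is the log10 of a whole number plus 1 and is not scaled between libraries. PRKCE had the highest deposited values of the family in all 8 libraries: 4.02 and 3.47 in the untreated G3BP1 libraries, 4.0 and 3.31 in the AS G3BP1 libraries, 4.04 and 3.69 in the untreated G3BP2 libraries, and 4.05 and 3.53 in the AS G3BP2 libraries. PRKCA had 3.91 and 3.43, 3.86 and 3.11, 3.92 and 3.57, and 3.90 and 3.43 in the same order. PRKCA was below PRKCE in every library and above PRKCH in 1 of 8, with equal values in 2 others. PRKCH had 3.94 and 3.41, 3.99 and 3.11, 3.97 and 3.58, and 4.02 and 3.43.

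PRKCB, whose mRNA was near 0 TPM, still had eCLIP values between 2.86 and 3.73. PRKCZ lay between 2.62 and 3.70, PRKCQ between 2.48 and 3.32, PRKCD between 1.84 and 3.02 and PRKCI between 1.92 and 2.56. The order of the 8 genes by eCLIP value thus did not follow their TPM: PRKCI had 8.57 TPM in siCtrl and the lowest or next to lowest values, and PRKCH had 0.126 TPM and values close to those of PRKCA. Across all genes the eCLIP value went with the genomic span, introns included, with r between 0.82 and 0.86 over 17330 to 18979 genes in each library. The 3 PKC genes with the highest values, PRKCE, PRKCH and PRKCA, were among the 4 with spans of 363 kb or more, PRKCB being the other.

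Per kb of span, with libraries scaled to the same total, PRKCA had a median of 10.8 over the 8 libraries (range 9.90 to 13.01), at percentiles 65.96 to 76.2 of all genes. It ranked 3 to 5 among the 8 PKC genes, depending on the library. PRKCZ had the highest median, 18.5 (11.1 to 25.2), followed by PRKCH with 16.5 (13.8 to 19.8) and PRKCE with 13.6 (13.02 to 14.9). The ranges of these 3 genes overlap, so their order was not resolved. PRKCA was below PRKCE and PRKCH in all 8 libraries, above PRKCZ in 2 and above PRKCD, with a median of 11.2 (4.56 to 21.0), in 4. It was above PRKCB and PRKCQ in all 8 libraries, and their medians were 8.40 (7.35 to 8.89) and 8.38 (7.68 to 8.85). PRKCI was the lowest, at 2.94 (2.41 to 3.84). Over the length of the gene PRKCA therefore did not stand apart in eCLIP, and it lay a median of 0.05 above the line of log10 value on log10 span fitted over all genes, against 0.14 for PRKCE, 0.25 for PRKCH and 0.33 for PRKCZ.

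The duplicates of PRKCZ spread widely. Its values per kb were 25.2, 23.2, 23.7 and 22.7 in the first library of each pair and 11.5, 12.0, 14.2 and 11.1 in the second. The first libraries, which had the larger totals, were thus above the second in all 4 groups without overlap. PRKCI split by library number the other way, 2.41 to 2.84 per kb in the first libraries and 3.05 to 3.84 in the second, and PRKCD was higher in the first library of each pair. For PRKCE the SD of the scaled log10 values of a pair was at most 0.0283, against up to 0.242 for PRKCZ.

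**Figure D3:**
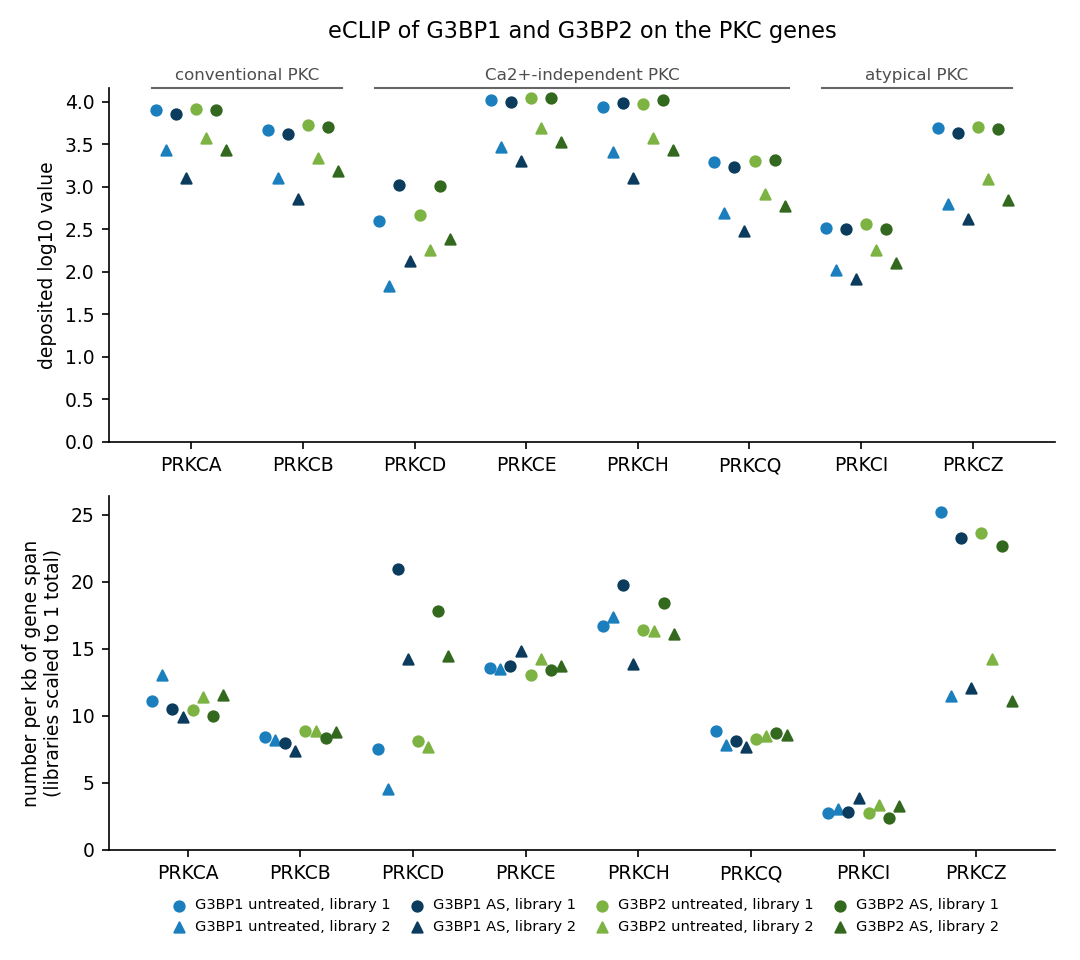
eCLIP values of the 8 PKC genes in the 8 libraries: deposited log10 values (top) and numbers per kb of gene span after scaling all libraries to 1 total (bottom); circles and triangles are the first and second library of each group. PRKCE was above PRKCA in every library on both scales, and PRKCZ per kb split by library number, 22.7 or more in the first libraries and 14.2 or less in the second.

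The comparison of AS with untreated eCLIP asks whether the eCLIP value changed under stress. Across 19259 genes limma called 0 at an adjusted p under 0.05 for G3BP1 and 0 for G3BP2, which is 0.0% in each, with 771 and 528 genes at an unadjusted p under 0.05. Accordingly 0 of 8 PKC genes were called for either protein. PRKCD had the largest differences of the family. Scaled to the same total, its log10 values were 2.34 ± 0.153 untreated and 2.80 ± 0.119 under AS for G3BP1, and 2.46 ± 0.0156 and 2.77 ± 0.0629 for G3BP2 (SD, n = 2 each).

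All 4 AS libraries lay above all 4 untreated libraries for PRKCD, 2.72 to 2.89 against 2.23 to 2.48. The difference was 0.468 for G3BP1 (95% interval 0.241 to 0.696; limma adjusted p = 0.924, unadjusted p = 0.00181) and 0.308 for G3BP2 (0.0806 to 0.535; limma adjusted p = 1.00, unadjusted p = 0.0150). Both differences missed the threshold after adjustment, and none of the 14 alternative fits for each protein passed. The difference was positive in each, but several of these fits leave the group means unchanged. With all AS libraries above all untreated ones, leaving out a library cannot reverse the sign either. The shared sign is therefore not a measure of stability. The difference between G3BP2 and G3BP1 in the AS effect on PRKCD was −0.161 (−0.482 to 0.161; limma adjusted p = 1.00).

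PRKCA had small differences in the same comparison. Its scaled log10 values for G3BP1 were 3.79 ± 0.0481 untreated and 3.72 ± 0.0177 under AS, and for G3BP2 3.74 ± 0.0283 and 3.74 ± 0.0438 (SD, n = 2 each). The AS difference of −0.0721 for G3BP1 (−0.159 to 0.0143; limma adjusted p = 0.951) and of −0.00708 for G3BP2 (−0.0935 to 0.0793; limma adjusted p = 1.00) did not pass. The other 6 genes had differences between −0.0622 (PRKCZ, G3BP2) and 0.0572 (PRKCI, G3BP1), and each of their intervals included 0. PRKCE had the narrowest interval for either protein, from −0.0399 to 0.0858 for G3BP1, and PRKCZ the widest, from −0.385 to 0.371 for G3BP1. With library number added to the fit as a block, the PRKCZ interval for G3BP1 was −0.102 to 0.0877.

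G3BP2 and G3BP1 libraries were also set against each other. Limma again called 0 genes (0.0%) in untreated cells and 0 under AS, with 158 and 238 genes at an unadjusted p under 0.05, and 0 for the difference in AS effect, with 146. For PRKCA the G3BP2 minus G3BP1 difference was −0.0423 untreated (−0.129 to 0.0441) and 0.0228 under AS (−0.0637 to 0.109). PRKCD had the largest of the 8 in untreated cells, 0.129 (−0.098 to 0.356).

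**Figure D4:**
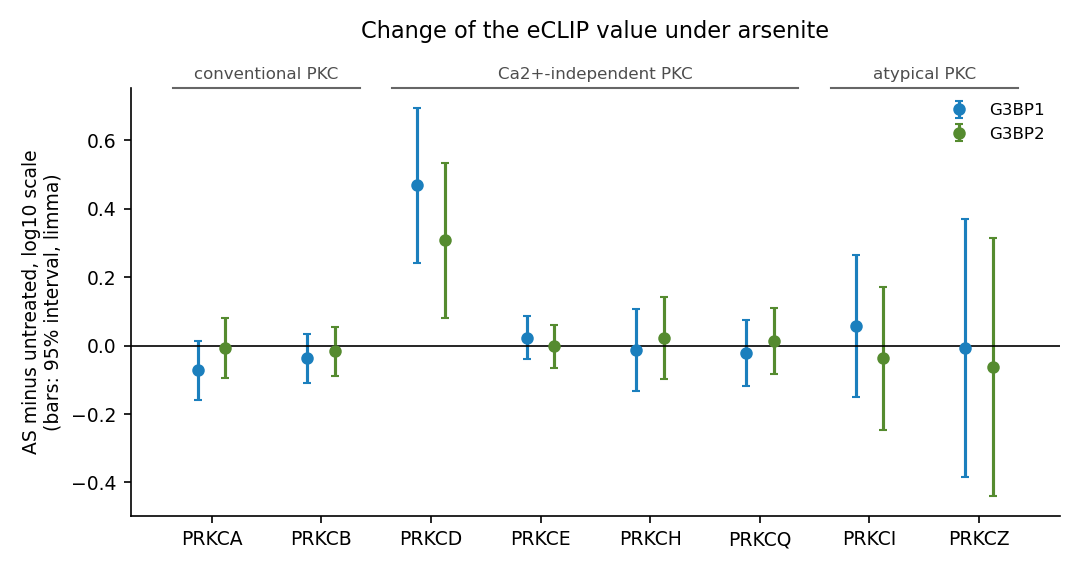
AS minus untreated difference of the scaled log10 eCLIP value of the 8 PKC genes, for G3BP1 and G3BP2, with 95% limma intervals from 2 libraries a group and a spread shared by all 8 libraries. PRKCD, at 0.468 and 0.308, is the only gene whose intervals leave out 0, and neither difference passed after adjustment.

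The rRNA-depleted libraries ask how PKC transcripts differed after AS. The deposited signal of a transcript is its reads divided by its length and by a constant of the library, as far as the values show. How reads were assigned among overlapping transcripts is not given in the sources used here, so transcripts of 1 gene may share reads. Of the 106 PKC transcripts, 43 were above 1 in either library: 21 of 26 for PRKCZ, 7 of 11 for PRKCD, 6 of 7 for PRKCI, 5 of 5 for PRKCA, 3 of 15 for PRKCE and 1 of 27 for PRKCH. The 12 transcripts of PRKCB were all listed at 0, and the 3 of PRKCQ stayed below 1.

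Of those 43 transcripts 2, or 4.65%, differed by more than 2-fold, against 8.86% of 100705 transcripts. A retained-intron transcript of PRKCI (ENST00000485837.5) had 0.894 untreated and 2.71 under AS, from 7 and 18 reads, a ratio of 3.03 with a 95% counting interval of 1.21 to 8.58. A retained-intron transcript of PRKCA (ENST00000583775.1) had 1.87 from 8 reads untreated and was listed at 0 under AS, with a 95% counting interval of 0 to 0.690 for the ratio. Both rest on few reads. The median log2 ratio of the 35 PKC transcripts above 1 in both libraries was 0.11, against 0.25 over all transcripts.

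The canonical PRKCA transcript (ENST00000413366.8) had a signal of 25.3 untreated and 20.8 under AS, from 3012 and 2102 reads, a ratio of 0.822 (95% counting interval 0.777 to 0.870). It was the highest of the canonical PKC transcripts, 4.16 times the next untreated and 2.39 times under AS. Summed over all transcripts of a gene, PRKCZ was higher, with 83.9 untreated and 92.9 under AS, against 64.5 and 48.8 for PRKCA. Reads shared among transcripts may be counted more than once in these sums. The canonical PRKCI transcript (ENST00000295797.5) had 6.08 and 8.71, from 395 and 480 reads, a ratio of 1.43 (1.25 to 1.64). Thus PRKCA was lower and PRKCI higher under AS, each by less than 2-fold, where the median ratio over all transcripts was 1.19. The canonical PRKCZ transcript (ENST00000378567.8) had 5.52 and 6.06, from 175 and 163 reads, a ratio of 1.097 (0.881 to 1.37).

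Signals of the Ca2+-independent PKCs were lower. The canonical PRKCE transcript (ENST00000306156.8) had 1.28 and 1.85, from 98 and 120 reads, and that of PRKCD (ENST00000330452.8) 0.983 and 1.56, from 37 and 50 reads. Their ratios of 1.44 (1.1 to 1.9) and 1.59 (1.02 to 2.51) were within 2-fold, and both intervals included 1.19, the median ratio of all transcripts. The libraries are not on 1 scale: the signal summed to 1039719 untreated and 1216810 under AS. PRKCQ (ENST00000263125.10, 34 and 27 reads) and PRKCH (ENST00000332981.11, 25 and 25 reads) had ratios of 0.936 and 1.18, with intervals that included both 1 and 1.19. Equal reads, as for PRKCH, thus gave a ratio of 1.18. These intervals cover counting error of single libraries only, and no molecular identifiers are described for these reads.

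The antisense gene PRKCA-AS1 shares no exonic base with PRKCA, and both of its transcripts above 1 were more than 2-fold lower under AS. Of all 100705 transcripts above 1 in either library, 8.86% differed by more than 2-fold, and 2029 were called lower. ENST00000584715.5 had 3.56 untreated and 1.13 under AS, from 100 and 27 reads, a ratio of 0.318 (counting interval 0.2 to 0.491). ENST00000584614.1 had 2.93 and 1.30, from 24 and 9 reads, a ratio of 0.442 (0.181 to 0.985), and rests on few reads. They are not PKC transcripts, were named after their values were seen and are given because their reads lie within the PRKCA locus. The PRKCZ-AS1 transcript ENST00000333854.2 had 1.08 untreated and 0.566 under AS, from 18 and 8 reads. Its ratio of 0.524 (0.197 to 1.27) was not called.

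**Figure D5:**
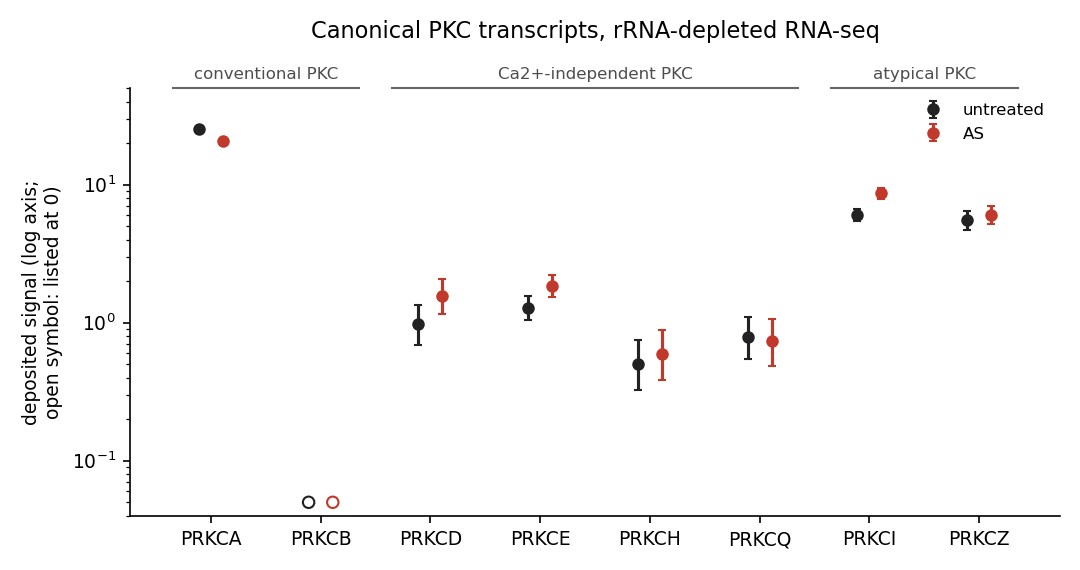
Deposited signal (log axis) of the canonical transcript of the 8 PKC genes in the untreated and the AS rRNA-depleted library, with 95% counting intervals of the reads; open symbols are listed at 0. Among canonical transcripts PRKCA was highest in both libraries, 25.3 and 20.8, and none differed by 2-fold. Summed over all transcripts of a gene, PRKCZ was above PRKCA in both libraries.

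Genes around the PKC enzymes were grouped by role. The phospholipase C list held 14 genes of that family, most of which encode enzymes that produce the DAG that activates PKC. PLCL1 and PLCL2 were counted by family only. Of the 14, 12 were above 1 TPM in Total or SG and 11 were SG-enriched. Their median log2 fold was 1.96, against 62.9% of all genes classed and their median of 1.51. PLCG1, coupled to receptor tyrosine kinases, had 86.3 TPM in siCtrl and went from 32.3 TPM in Total to 369 TPM in SG. PLCD1 was the one not enriched, at 13.2 TPM in SG against 10.4 TPM in Total. Of 11 DAG kinases and lipases, which remove DAG, 8 of 10 above 1 TPM were SG-enriched (62.9% of all genes), with a median log2 fold of 2.25, led by DGKH (from 0.0944 TPM in Total to 20.6 TPM in SG) and DAGLA (2.81 and 61.7 TPM). A further list held 15 genes for other DAG-binding proteins and their relatives, such as UNC13D. All 10 of its classed genes were SG-enriched, with a median of 2.95, against the 62.9% of all genes. Among them UNC13B, which primes synaptic vesicles, went from 0.720 TPM in Total to 104 TPM in SG, a fold of 61.3 near that of PRKCE. In these lists PLCB1, PLCB2, PLCB4, PLCH1, PLCH2, PLCL1 and PLCL2 passed the 1 TPM minimum only through SG. So did DGKE, DGKG, DGKH, DGKI, UNC13B, MYO9A, CHN2 and RASGRP2. By the rule, genes admitted that way cannot be classed SG-depleted, which limits what the enriched shares show.

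Proteins that prime, anchor or dephosphorylate PKC were split. Of 18 such genes 9 were SG-enriched and 3 SG-depleted, against 62.9% and 9.45% of all genes, with a median log2 fold of 0.99, against 1.51. PDPK1, the kinase that phosphorylates the PKC activation loop, went from 2.696 TPM in Total to 117 TPM in SG, and the phosphatase PHLPP1 from 0.113 to 33.8 TPM. RACK1, a ribosomal scaffold that also binds activated PKC, was SG-depleted, at 4139 TPM in Total but 468 TPM in SG. Of 12 partners of atypical PKC 8, or 66.7%, were SG-enriched, near the share of all genes, with a median of 1.78: PARD6B had 0.319 and 14.5 TPM, while SQSTM1, the p62 scaffold, had 27.1 and 14.4 TPM. Of 19 genes for PKC substrates 9 of 17, or 52.9%, were SG-enriched and 3 SG-depleted, again against 62.9% and 9.45%, with a median of 1.33, from GSK3B (4.39 and 136 TPM) to VIM (2178 and 692 TPM). The related kinases PKN2 (1.15 and 33.1 TPM) and PKN3 (10.9 and 27.96 TPM) were SG-enriched. In these lists AKAP5, CAVIN3, LLGL2, PARD6B, PHLPP1, PHLPP2 and RICTOR were above 1 TPM in SG but not in Total.

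In siG3BP1 2 of the 8 phospholipase C family genes above 1 TPM in siCtrl or siG3BP1, PLCB2 and PLCL2, passed a 2-fold difference. The other lists, with 3 to 17 such genes each, had 0, against 6.22% of all genes. PLCB2 was lower (1.98 to 0.936 TPM) and within 2-fold once 1 TPM was added, and PLCL2 was higher (0.0336 to 1.81 TPM), above 1 TPM only in siG3BP1. In siG3BP2 DGKH was higher, 1 of 9 DAG kinases and lipases above 1 TPM in siCtrl or siG3BP2. PLCB2 (1 of 7 phospholipase C family genes) and UNC13B and UNC13D (2 of 8 other DAG-binding proteins and relatives) were lower. So were AKAP12 and PDPK1 (2 of 16 priming, anchoring or dephosphorylation genes) and LLGL2 and WWC1 (2 of 11 atypical PKC partners). Of 17 substrate genes and 3 PKN kinases 0 passed, where 8.05% of all genes did. DGKH was above 1 TPM only in siG3BP2 (0.310 to 1.04 TPM), and its ratio with 1 TPM added was 1.56, which ends the call. UNC13B had 11.4 TPM in siCtrl and 1.64 TPM in siG3BP2, a ratio of 0.144, and PDPK1 had 16.9 and 5.71 TPM, a ratio of 0.338. In eCLIP no gene of these lists passed the limma threshold for AS against untreated for either protein, as was true of all genes.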

How the data were processed

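Values of the 8 PKC genes were read by gene name, or by transcript in the rRNA-depleted table; genes and lists were chosen with earlier results of these data known. The poly-A table holds TPM that the authors computed with StringTie after HISAT2 2.1.0 alignment to GRCh38, for protein-coding genes, 1 library per column. The rRNA-depleted table holds a deposited signal per transcript, headed TPM; multiplied by transcript length it gives whole multiples of 1 step (100% and 99.9993% of transcripts within 0.02), which correspond to 13291959 and 11281587 reads. The eCLIP table holds log10 values deposited by the authors for the libraries of both proteins; the study's methods describe UMI deduplication with fastp, STAR alignment, CLIPper peaks and normalization to input, and do not say which of these the gene values include.

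SG classes used the study's thresholds with 1 TPM added to both values, an addition the methods do not state (fold of TPM + 1 above 2 with SG above 1 TPM, or below 0.5 with Total above 1 TPM). Other single-library comparisons called a ratio above 2 or below 0.5 with the higher value above 1. eCLIP values were converted back, scaled to 1 total, log10-transformed after adding 1 and fitted with limma 3.58.1 (R 4.3.3) with a mean trend over 8 libraries in 4 groups, for genes above 0 in at least 2 libraries, with Benjamini-Hochberg adjustment; the fit was tested on simulated data. Named genes were all PKC genes, PKC transcripts above 1 (canonical and called ones by name, the others as counts, with the canonical PRKCH and PRKCQ transcripts below 1 added), the at most 2 highest and 2 lowest SG folds per list among genes above 10 TPM in any library, and the 5 genes nearest to PRKCA among those above 1 TPM in at least 3 libraries. Other genes were named after their values were seen. These were list genes that passed in a knockdown or passed the 1 TPM minimum only through SG, the COL1A1, COL1A2 and DCN markers, PRKCA-AS1 and PRKCZ-AS1. Counting intervals are exact, at 95%. Gene models and bases came from GENCODE release 44 and GRCh38. Alternatives changed the pseudocount, threshold, minimum, scaling, filter, pairing, transcript and libraries. Input libraries were not analysed here, and some genes and a site within the named-gene rule are not reported here. Python 3.11.15 with pandas 2.3.3 was used.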

Additional observations from a re-analysis of the deposited data

How the results depend on the processing

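Of the values for single PKC genes and lists under the alternatives, 757 kept their side of the threshold (for values without a test, stayed within 1.5-fold) and 25 moved. This tally includes alternatives that cannot move a value, such as another fold threshold or minimum for the fold of 1 gene. It is therefore not a measure of how stable the values are. No called value changed sign, while uncalled ones near 0 did, such as the SG fold of PRKCZ and the AS differences of PRKCZ and PRKCI. The number of SG-enriched and SG-depleted genes was 4505 and 3271 with SG rescaled to a median ratio of 1, and 5332 and 538 with thresholds of 4 and 0.25. For siG3BP1 the genes called were 381 and the PKC genes 1 with a pseudocount of 1, 143 and 0 with a minimum of 10 TPM, 1772 genes with 1.5-fold thresholds, and 2760 with no minimum. For siG3BP2 they were 503 with a pseudocount of 1 and 210 with a minimum of 10 TPM, and 2252 and 2997 with 2 PKC genes each under 1.5-fold thresholds and no minimum. For the rRNA-depleted pair, transcripts and PKC transcripts called were 1990 and 1 with a pseudocount of 1, 308 and 0 with a minimum of 10, and 40872 and 16 with no minimum. Summing transcripts per gene gave 2248 and 0. Rescaling AS to a median ratio of 1 changed the split of calls, with 77.3% higher before and 49.0% after. The cause of these shifts was not tested beyond what fewer or more genes tested and the threshold itself set. The rank of PRKCA per kb, 5, was 4 per length of the longest transcript and 4 to 5 without either replicate.

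In eCLIP, without a filter on low values limma called 2 genes for G3BP1, 5 for G3BP2, and 1 each for G3BP2 against G3BP1 in untreated and AS libraries. Leaving out 1 library at a time gave 0 to 206 calls for G3BP1 AS against untreated, 0 to 178 for G3BP2 against G3BP1 under AS and 0 to 24 for the difference in AS effect. The first AS library of G3BP1 gave the highest of these when left out, and its group then has 1 library, assumed to vary like the others. No PKC gene passed in any alternative, the lowest adjusted p being 0.224. Deviations between duplicates were shared in part by library number. Their correlation between G3BP1 and G3BP2 was 0.414 untreated and 0.322 under AS, and 0.06 to 0.147 between treatments. The main fit left library number out. With it as a replicate block 0 genes were called in all 5 eCLIP comparisons, with 1136, 809, 285, 396 and 213 at an unadjusted limma p under 0.05. Without scaling, the median of all genes shifted by −0.115 for G3BP1 and −0.075 for G3BP2 under AS. Depth is unknown for TPM, and single libraries give no spread.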
